A study of Mus musculus with 59 samples.

Results

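Etnppl encodes ethanolamine-phosphate phospho-lyase, the enzyme that breaks down phosphoethanolamine. It was examined with 8 further genes that make or convert phosphatidylethanolamine. The 9 genes were found by their symbols in a table of 41227 genes measured in mouse pons, the part of the brainstem that joins the cerebellum to the rest of the brain, and each symbol had 1 entry. Etnppl was chosen by its low FPKM in mice with a duplicated repeat in Atxn3, in the same libraries described here. Its values in those mice are therefore a description, without a test. The other 8 genes were taken for their place in the pathway. In the mice with the duplicated repeat Etnppl was lower by 2.47-fold in homozygotes and by 2.79-fold in heterozygotes. None of the other 8 genes passed an adjusted p of 0.05 in any of the 11 comparisons made, where 0.0% to 10.7% of all genes did. Etnk2 came nearest, with an unadjusted p under 0.05 in 3 comparisons.

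Phosphatidylethanolamine is a main phospholipid of cell membranes and is abundant in brain and myelin. In the cytidine pathway ethanolamine is first phosphorylated, then activated with CTP, and then joined to diacylglycerol. A second supply comes from mitochondria, where phosphatidylserine is decarboxylated. Phosphoethanolamine, the product of the first step of the cytidine pathway, stands at a branch point: it can go on to the lipid, or it can be cleaved by the Etnppl enzyme to ammonia, phosphate and acetaldehyde. In the brain Etnppl is known as a transcript of astrocytes.

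The mice model spinocerebellar ataxia type 3, a disease caused by an expanded glutamine repeat in ataxin-3, a ubiquitin-cleaving enzyme. All were on the C57BL/6 background, and the labels give neither age nor sex. The first set held 3 wild-type libraries, 3 of Atxn3 knockouts (Atxn3KO) and 3 of homozygotes for a knock-in in which a repeat of 82 glutamines is duplicated (dupKIHom). The second set held 6 wild-type libraries, 6 of heterozygotes for the same duplicated repeat (dupKIHet), 4 of heterozygotes (KIHet) and 4 of homozygotes (KIHom) for an Atxn3 knock-in whose 82-glutamine repeat is not duplicated, and 4 each of hemizygous mice with a human ATXN3 transgene of 84 or 15 glutamines on a yeast artificial chromosome (YACQ84 and YACQ15). The labels do not say which mouse Atxn3 alleles the transgenic mice carry, nor whether any library pooled animals, so p-values measure the spread between these libraries.

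Values are FPKM, fragment counts scaled by transcript length and sequencing depth, so levels of different genes can be set side by side. All 9 libraries of the first set read as male and all 28 of the second as female from Ddx3y and Xist, so comparisons were made within a set only. Atxn3 was at 0.239 ± 0.083 FPKM (SD, n = 3) in the knockouts and at 7.04 ± 0.70 FPKM (n = 3) in their wild-type controls. Genes of pontine and hindbrain neurons were present, with Slc6a5 at 49.0 to 91.3 FPKM in the 28 libraries of the second set. Hoxb2, a hindbrain gene, was at 4.76 to 7.81 FPKM in the first set but listed at 0 in every second-set library. Ttr, the main transcript of choroid plexus, ran from 14.2 to 3125 FPKM in the second set and from 4.51 to 2909 FPKM in the first.

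Etnppl stood at 24.9, 25.0 and 25.5 FPKM in the 3 wild-type libraries of the first set. In dupKIHom it was at 7.10, 9.54 and 12.9 FPKM, so the highest homozygote was far below the lowest wild-type library. The means were 25.1 ± 0.34 and 9.86 ± 2.93 FPKM (SD, n = 3 each), a log2 difference of -1.30 on the log2(FPKM + 1) scale. In the knockouts Etnppl was at 22.6, 23.3 and 24.5 FPKM, a level close to wild-type and well above dupKIHom. The difference between dupKIHom and Atxn3KO was -1.21 on the log2(FPKM + 1) scale.

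The heterozygotes of the second set gave the same order. Wild-type Etnppl ran from 37.0 over a median of 41.6 to 49.5 FPKM, and dupKIHet from 10.8 over 13.9 to 19.7 FPKM. The means were 42.2 ± 4.88 and 14.7 ± 3.44 FPKM (SD, n = 6 each), a log2 difference of -1.48 on the log2(FPKM + 1) scale. Against KIHet, heterozygotes for the single repeat, dupKIHet was lower by 1.40 on the same scale (log2 difference -1.40, 2.63-fold). All 6 dupKIHet libraries lay below every other library of the second set. In both sets ranges were also apart for other genes: 8.2% of the 14059 genes tested were lower in all dupKIHom than in all wild-type libraries, and 1.11% of 14802 were lower in all dupKIHet than in all wild-type libraries.

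**Figure D1:**
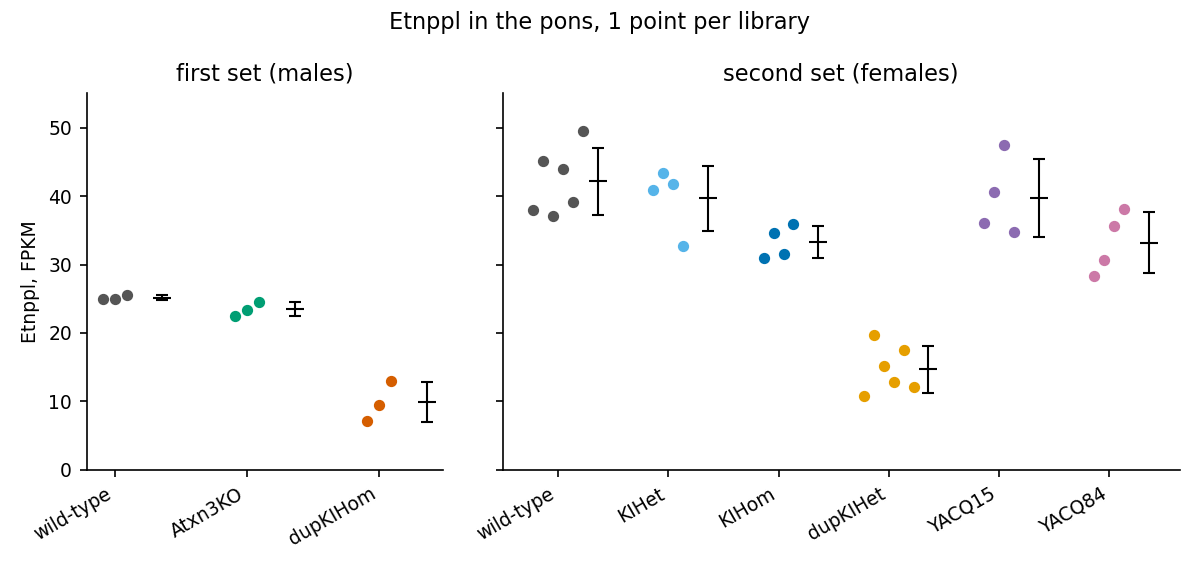
Etnppl in FPKM (vertical axis, from 0) for each library, by genotype, in the first set (left) and the second set (right), with the mean and SD as a black bar beside the points. The dupKIHom libraries lie between 7.10 and 12.9 FPKM and the dupKIHet libraries between 10.8 and 19.7 FPKM, below the libraries of every other genotype in their set.

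The promoter window of Etnppl is shown because its transcript had the largest log2 difference of the 9 in the duplicated knock-ins. It stands beside that of Agt, whose profile over the 28 libraries of the second set was the most like that of Etnppl. A window was listed for 7 of the 9 genes. Both sequences come from RefSeq on GRCm38.p6, cover 250 bases before to 50 bases after a start site, and are printed 5′ to 3′ on the strand of the gene. The Etnppl window is chr3:130617325-130617624 on the plus strand, and the Agt window is chr8:124569657-124569956 on the minus strand. A further Etnppl start site lies a little upstream, and its overlapping window held none of the motifs. Capitals mark matches to any of 4 motifs, which were chosen after the values had been seen and were searched on both strands.

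Etnppl: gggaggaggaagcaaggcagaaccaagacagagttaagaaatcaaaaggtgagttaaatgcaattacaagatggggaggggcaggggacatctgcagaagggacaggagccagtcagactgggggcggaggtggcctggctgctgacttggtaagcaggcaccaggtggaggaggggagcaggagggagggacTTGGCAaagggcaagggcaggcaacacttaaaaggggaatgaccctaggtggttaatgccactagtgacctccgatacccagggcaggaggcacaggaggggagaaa
Agt: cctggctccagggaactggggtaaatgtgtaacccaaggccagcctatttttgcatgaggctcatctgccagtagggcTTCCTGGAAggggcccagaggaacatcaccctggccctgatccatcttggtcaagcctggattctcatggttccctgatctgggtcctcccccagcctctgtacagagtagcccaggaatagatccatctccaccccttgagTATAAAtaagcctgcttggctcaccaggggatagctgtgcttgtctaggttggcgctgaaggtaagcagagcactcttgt

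The Etnppl window holds the NFI half-site TTGGCA at position -57 from the start site, a motif found in 14.1% of the 32851 promoter windows of the table. The Agt window holds the TATA box TATAAA at -30 (13.6% of windows) and the STAT motif TTCNNNGAA at -172 (8.3% of windows). The glucocorticoid receptor half-site AGAACA, present in 19.0% of windows, was in neither of them. No 2 of these matches overlapped, and no motif was shared by both windows.

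In the genotypes without the duplicated repeat Etnppl was tested, against wild-type libraries that all comparisons of a set share. None of these tests passed an adjusted p of 0.05 in limma with Benjamini-Hochberg adjustment over all genes of the set. In Atxn3KO the log2 difference was -0.10 (95% interval -0.43 to 0.23, limma adjusted p = 0.943), and all 3 libraries lay below the lowest wild-type library. Ranges that were apart and lower were found for 5.17% of all genes tested in that comparison, and 0.0142% of genes were called.

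In KIHet Etnppl was at 40.9, 43.4, 41.8 and 32.8 FPKM, of which 1 lay below all wild-type libraries, and the log2 difference was -0.09 (95% interval -0.35 to 0.18, limma adjusted p = 0.884). In KIHom it was at 31.0, 34.6, 31.6 and 35.9 FPKM, all below the lowest of the 6 wild-type libraries. The KIHom difference was -0.33 (95% interval -0.60 to -0.06, limma p = 0.0178, adjusted p = 0.269). Ranges apart and lower were found for 2.34% of all genes in this comparison, 346 genes in number. Between KIHom and KIHet the difference was -0.24 (95% interval -0.54 to 0.05, limma p = 0.0986, adjusted p = 1.0).

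The transgenic mice gave a like picture. In YACQ84 Etnppl was at 28.3, 30.7, 35.6 and 38.1 FPKM, with 3 of the 4 libraries below all wild-type libraries, and the log2 difference was -0.34 (95% interval -0.61 to -0.07, limma p = 0.0151, adjusted p = 0.441). In YACQ15 it was at 36.0, 40.5, 47.5 and 34.8 FPKM, of which 2 lay below all wild-type libraries, with a difference of -0.09 (95% interval -0.36 to 0.18, limma adjusted p = 1.0). The 2 transgenes differed by -0.25 (95% interval -0.54 to 0.04, limma p = 0.0897, adjusted p = 0.958). Ordered by mean, wild-type, KIHet, YACQ15, KIHom and YACQ84 ran from 42.2 to 33.2 FPKM with each neighbour overlapping the next, and only the step down to dupKIHet left a gap.

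Etnppl is known as an astrocyte transcript, and other astrocyte genes were also lower in the duplicated knock-ins. Of 20 astrocyte genes, 10 fell in dupKIHom and 12 in dupKIHet by limma at an adjusted p of 0.05, and none rose in either, where 1.64% and 2.53% of all genes were called in either direction. Their median log2 differences were -0.46 and -0.38, beside 0.02 and 0.01 over all genes tested. Against wild-type, 2 of the 20 also fell in KIHom and 1 in YACQ84, where 0.601% and 0.527% of all genes were called. None of the 20 was called in Atxn3KO, KIHet or YACQ15. Agt, an astrocyte gene in brain, was lower by about as much as Etnppl (-1.19 in dupKIHom and -1.45 in dupKIHet). The falls also included Slc1a2, the main astrocyte glutamate transporter (-0.93 in dupKIHom and -0.69 in dupKIHet), the gap junction gene Gja1 (-0.72 and -0.57) and the water channel gene Aqp4 (-0.68 and -0.32). Aldh1l1, Slc1a3 and Sox9, which also mark astrocytes, did not pass the test, with log2 differences between -0.13 and 0.17. S100b went the other way, with 0.26 in dupKIHom and 0.14 in dupKIHet against wild-type (limma adjusted p = 0.0838 and 0.311), and it was higher in dupKIHom than in Atxn3KO (0.45, limma adjusted p = 0.0048). The summed level of the 20 genes was 2475 to 2687 FPKM in dupKIHom and 3156 to 3380 FPKM in its controls, and 2150 to 2345 FPKM in dupKIHet and 2857 to 3183 FPKM in its controls. In bulk tissue, fewer astrocytes and less of these transcripts per astrocyte cannot be told apart.

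Agt, 1 of these 20 genes and the gene nearest to Etnppl in the second set, was lower by more than their mean. Etnppl was too, but it was chosen for its low values in these mice, so this is a description. Its log2(FPKM + 1) minus the mean of the 20 genes differed from wild-type by -0.93 in dupKIHom and by -1.10 in dupKIHet, while that mean itself differed by -0.37 and -0.38. Per library the difference between Etnppl and the mean ran from -3.10 to -2.47 in dupKIHom, against -1.87 to -1.79 in wild-type and -1.90 to -1.84 in Atxn3KO. In the second set it ran from -2.47 to -1.76 in dupKIHet and from -1.23 to -0.86 in wild-type. Relative to the astrocyte genes, the other genotypes differed from wild-type by -0.04 (Atxn3KO), -0.03 (KIHet), -0.23 (KIHom), -0.22 (YACQ84) and 0.01 (YACQ15), without a test.

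Genes of other cells moved too. Of the oligodendrocyte genes tested, 10 of 16 fell in dupKIHom and 9 of 15 in dupKIHet by the same limma rule. Over all genes, 1.64% and 2.53% were called in these comparisons. The oligodendrocyte medians were log2 differences of -0.74 and -0.39, beside -0.46 and -0.38 for the astrocyte genes. Against wild-type 5 of 15 also fell in KIHom, 5 of 15 in YACQ84 and 1 of 15 in KIHet. The shares over all genes there were 0.601%, 0.527% and 0.115%. Of 10 endothelial genes, 1 fell in dupKIHom, 2 fell in KIHom and 4 rose in dupKIHet. Of 10 neuronal genes 2 fell in dupKIHom. None of 10 choroid plexus genes was called in dupKIHet, but their median log2 difference was 0.93, and their summed level ran from 269.9 to 2869 FPKM there and from 299.5 to 923 FPKM in wild-type. Ttr was above 1000 FPKM in dupKIHet libraries 1, 4 and 6 and in no wild-type library of the second set. Etnppl was at 10.8, 12.8 and 12.1 FPKM in those 3 libraries and at 15.1 to 19.7 FPKM in the other 3. Without the libraries above 1000 FPKM of Ttr the log2 difference of Etnppl in dupKIHet was -1.23. The part of the other cell types in the Etnppl values was not tested.

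**Figure D2:**
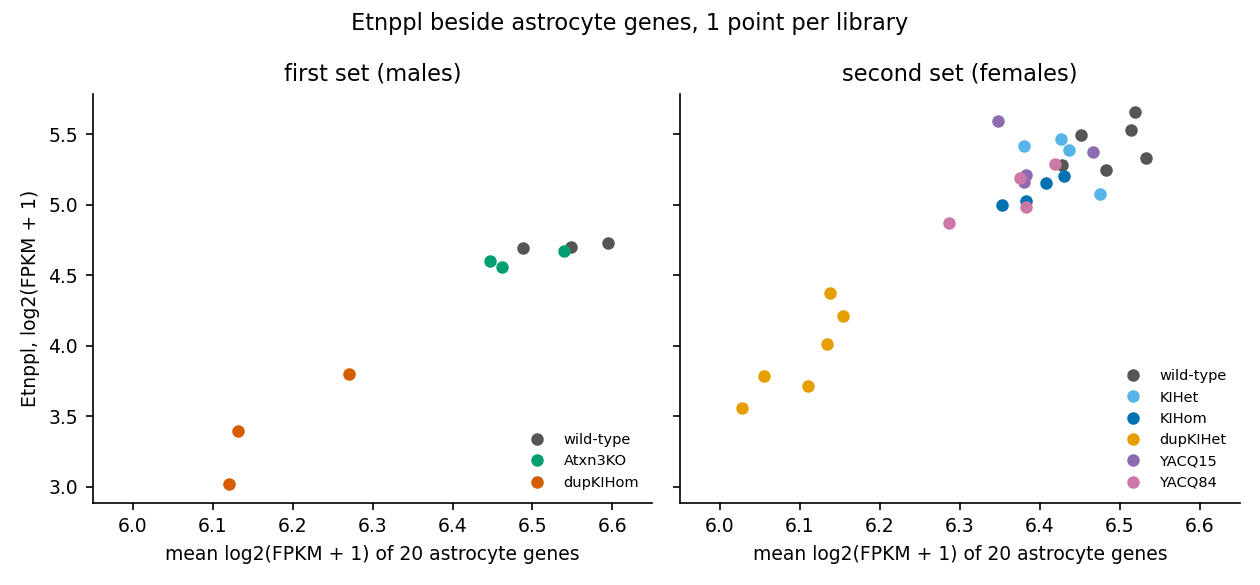
Etnppl as log2(FPKM + 1) (vertical axis) against the mean log2(FPKM + 1) of 20 astrocyte genes (horizontal axis), 1 point per library, coloured by genotype. The dupKIHom and dupKIHet libraries lie apart from the rest on both axes, lower by 0.37 and 0.38 on the horizontal axis and by 1.30 and 1.48 on the vertical axis on average.

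The genes whose profile was most like that of Etnppl were sought in the second set, by the root mean square difference between centred log2(FPKM + 1) values over the 28 libraries. Etnppl itself varied around its mean by 0.590 on this measure. The 8 nearest of 14801 genes were Agt at 0.200, Itih3 at 0.280, Mt2 at 0.292, Mt1 at 0.313, Dao at 0.313, Ndrg2 at 0.317, Nnat at 0.326 and Glul at 0.352. Agt encodes angiotensinogen, Mt1 and Mt2 are metallothioneins that bind zinc and copper, Dao is the oxidase of D-serine, and Glul is glutamine synthetase. Since the low dupKIHet values of Etnppl shape its profile, genes that are also low there come first.

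Agt came closest, with values of 50.5 to 66.3 FPKM in wild-type and 15.9 to 24.0 FPKM in dupKIHet. Like Etnppl it was lowest in dupKIHet library 1, but so were Itih3, Mt2, Mt1, Dao, Ndrg2 and Nnat. The mean of Agt in YACQ84, 51.7 ± 10.2 FPKM (SD, n = 4), was the second lowest of the 6 genotypes. YACQ84 was also second lowest for Itih3, Mt1, Ndrg2, Nnat and Glul. The 7 genes other than Agt were lower in dupKIHet than in wild-type by 0.77 (Glul) to 1.07 (Nnat) on the log2 scale. Over the 9 libraries of the first set the same 8 genes ranked 4 (Agt), 8 (Glul), 15 (Dao), 25 (Mt2), 28 (Itih3), 48 (Mt1), 68 (Ndrg2) and 101 (Nnat) among 14058 genes. The 8 nearest genes of the first set were Il33, Serpinb1a, Car2, Agt, Slc1a2, Klk6, Pdlim2 and Glul, so 2 of 8 were shared. There the low dupKIHom values, for which Etnppl was also chosen, shape its profile. The ranks of the first set are therefore a description and not an independent check. FPKM of the metallothioneins depend on how reads shared between near-identical family members were split.

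The other 8 genes differed in level by more than an order of magnitude. In wild-type pons of the second set the highest were Pcyt2 at 95.7 ± 10.5 FPKM and Etnk1 at 82.3 ± 7.92 FPKM (SD, n = 6 each), which carry out the activating and the first step of the cytidine pathway. Cept1 (42.0 ± 2.48 FPKM), Pisd (29.1 ± 1.24 FPKM), Ptdss1 (27.4 ± 0.81 FPKM) and Ptdss2 (15.5 ± 1.26 FPKM) lay between, with Etnppl among them. Etnk2 at 5.43 ± 1.07 FPKM and Pemt at 3.88 ± 1.21 FPKM were the lowest. The first set gave a similar order, from Etnk1 at 94.1 ± 6.03 FPKM to Etnk2 at 2.17 ± 0.27 FPKM (n = 3 each). In dupKIHet, Etnppl at 14.7 FPKM stood just under Ptdss2 at 15.1 FPKM, while in wild-type of the second set it stood at the level of Cept1. In wild-type of the first set Etnppl was lower, at 25.1 FPKM, between Pisd at 30.9 FPKM and Ptdss2 at 18.5 FPKM.

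**Figure D3:**
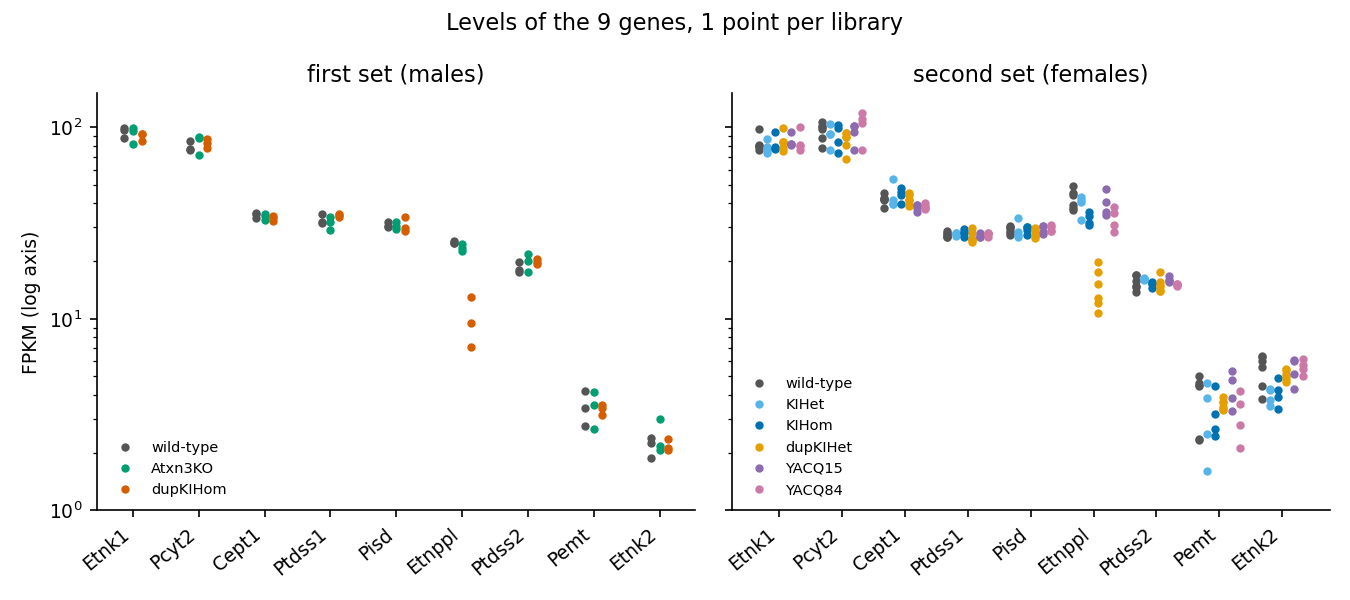
Level of each of the 9 genes in FPKM (vertical log axis), 1 point per library and coloured by genotype, in the first set (left) and the second set (right). The dupKIHom and dupKIHet points of Etnppl lie apart from the other genotypes, while for each of the other 8 genes the range of every genotype overlaps that of wild-type.

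None of these 8 genes was called in any comparison by limma at an adjusted p of 0.05 over all genes. In dupKIHom against wild-type, where 1.64% of all genes were called, their log2 differences ran from -0.07 to 0.11, with 95% intervals within -0.35 to 0.30. In dupKIHet against wild-type, where 2.53% were called, they ran from -0.16 to 0.03, with intervals within -0.42 to 0.31. A change of the size seen for Etnppl therefore lay outside every one of these intervals. The median over the 8 genes was 0.00 in dupKIHom and -0.04 in dupKIHet. In dupKIHom against Atxn3KO, where 1.24% of genes were called, the same 8 genes gave -0.09 to 0.13.

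The same held where the background was lower. None of the 8 was called in Atxn3KO, in KIHet (0.115% of genes called), in KIHom (0.601%), in YACQ84 (0.527%) or in YACQ15 (0.00676%), each against wild-type. Their log2 differences over all 7 comparisons with wild-type ran from -0.36 (Etnk2 in KIHet) to 0.15 (Pemt in YACQ15). Between KIHom and KIHet no gene at all was called (0.0% by limma, with 333 genes at an unadjusted p under 0.05), and between YACQ84 and YACQ15 0.263% were. In dupKIHet against KIHet 10.7% of all genes were called and none of the 8, with Etnk2 the nearest (limma adjusted p = 0.0687). For so few genes, no call at all is close to each of these shares. Of the 88 pairs of gene and comparison, 3 had an unadjusted p under 0.05, and all 3 were Etnk2.

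**Figure D4:**
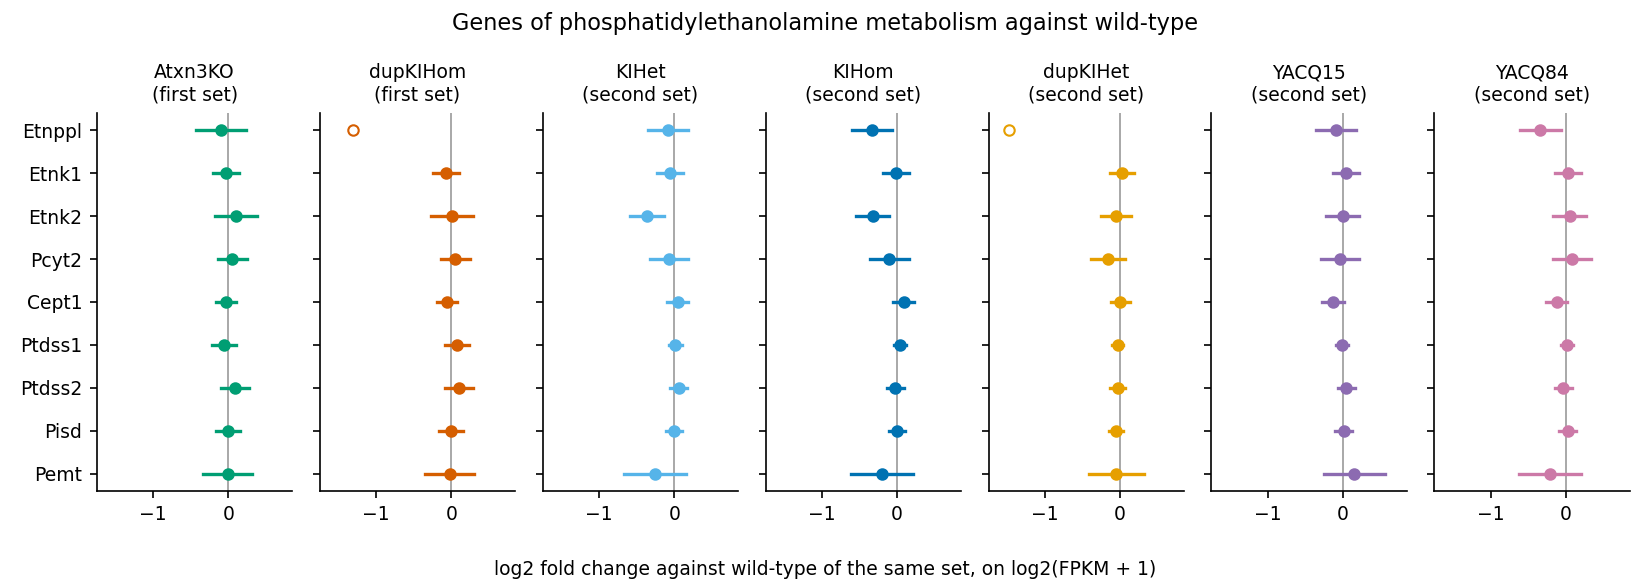
Log2 fold change on log2(FPKM + 1) against wild-type of the same set (horizontal axis) for each of the 9 genes, 1 panel per genotype, with 95% limma intervals as lines. Open circles are Etnppl in the duplicated knock-ins (-1.30 and -1.48), shown without an interval because the gene was chosen for them. The other 8 genes lie between -0.36 and 0.15.

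Among the other 8 genes, Etnk2, the less abundant ethanolamine kinase of the cytidine pathway, came nearest to passing the test. In the second set it ran from 3.81 over a median of 5.79 to 6.39 FPKM in wild-type. In KIHet it was at 3.75, 3.50, 4.26 and 4.30 FPKM, and in KIHom at 4.23, 3.93, 3.37 and 4.90 FPKM. Of these, 2 KIHet libraries and 1 KIHom library lay below all wild-type libraries, and both ranges overlapped that of wild-type. The log2 differences were -0.36 in KIHet (95% interval -0.58 to -0.14, limma p = 0.0025, adjusted p = 0.200) and -0.32 in KIHom (95% interval -0.55 to -0.10, limma p = 0.0059, adjusted p = 0.179). One library decided this: without wild-type library 2, the lowest at 3.81 FPKM, Etnk2 was called in KIHet (-0.44, limma adjusted p = 0.0310) and in KIHom (-0.40, limma adjusted p = 0.0336). Calls over all genes moved too. In fits without 1 library they ran from 5 to 138 genes in KIHet, with 17 in the full fit. In KIHom they ran from 19 to 239, with 89 in the full fit.

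In dupKIHet Etnk2 was at 4.70 to 5.48 FPKM, above all 4 KIHet libraries. The difference between dupKIHet and KIHet was 0.30 (95% interval 0.08 to 0.53, limma p = 0.0090, adjusted p = 0.0687). Ranges apart and higher were found for 5.48% of all genes in that comparison. Fitted with only these 2 genotypes the limma adjusted p was 0.0311, and with a term for the libraries numbered 1 it was 0.0428, in fits that called 4.87% and 25.1% of all genes. In YACQ84 and YACQ15 Etnk2 was at 5.58 ± 0.49 and 5.38 ± 0.85 FPKM (SD, n = 4 each), and all 8 libraries lay within the wild-type range. In the first set it was low in all 9 libraries, at 1.87 to 3.00 FPKM.

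Etnk1, the main ethanolamine kinase in these libraries, had mean levels of 78.9 to 84.8 FPKM over the 6 genotypes of the second set and of 89.4 to 94.1 FPKM over the 3 of the first. Pcyt2, which makes CDP-ethanolamine and is regarded as the rate-limiting enzyme of the pathway, had means of 85.5 to 102 FPKM over the second-set genotypes, lowest in dupKIHet and highest in YACQ84. Its log2 difference in dupKIHet was -0.16 (95% interval -0.39 to 0.07, limma adjusted p = 0.624, and 0.0690 with a term for the libraries numbered 1). Cept1, which joins CDP-ethanolamine or CDP-choline to diacylglycerol, had means of 38.2 to 44.6 FPKM in the second set. Exons of Etnk1, Cept1 and Ptdss1 overlap other genes on the opposite strand in GENCODE M21, so their values are uncertain where reads were counted without strand.

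Both of the abundant cytidine pathway genes stood apart in the libraries numbered 1 of the second set. Etnk1 was highest in the library numbered 1 of all 6 genotypes of the second set, at 86.4 to 100.5 FPKM there and 73.7 to 83.9 FPKM in the other 22 libraries. Pcyt2 was lowest in the library numbered 1 of all 6 genotypes, at 68.4 to 78.3 FPKM against 81.0 to 118 FPKM in the other 22. Such a pattern was common: library 1 was highest in all 6 genotypes for 5.67% of all genes tested and lowest in all 6 for 19.4%. Ptdss1 was highest in library 1 in 5 of 6 genotypes and Pisd lowest in 5 of 6. Etnppl was lowest in library 1 in 3 of 6 genotypes and highest in none. The labels give no run or date, and what the number stands for was not tested. With a term for the libraries numbered 1, chosen after the data had been seen, Etnk1 was higher in dupKIHet than in KIHet by 0.11 (limma adjusted p = 0.0216), and without it by 0.08 (limma adjusted p = 0.574). The fit with the term called 25.1% of all genes in that comparison, and the fit without it 10.7%.

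**Figure D5:**
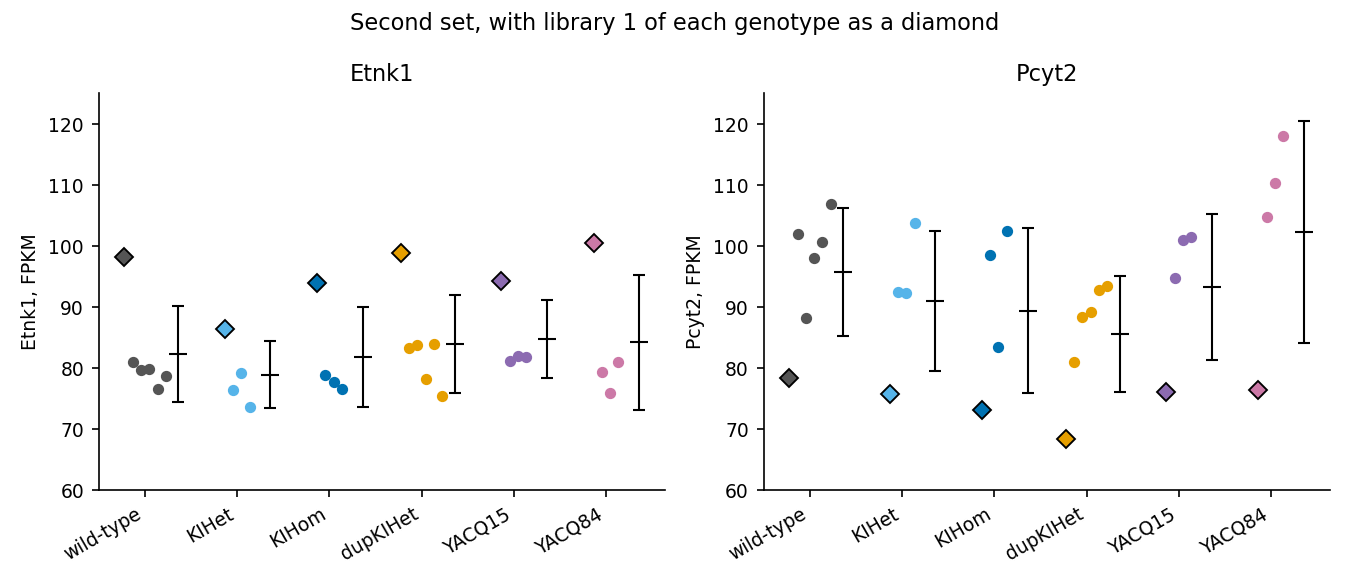
Etnk1 (left) and Pcyt2 (right) in FPKM (vertical axis, from 60) in the second set, 1 point per library by genotype, with the library numbered 1 of each genotype as a diamond and the mean and SD as a black bar. Etnk1 diamonds lie at 86.4 to 100.5 FPKM above the other libraries of their genotype, and Pcyt2 diamonds at 68.4 to 78.3 FPKM below them.

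The genes of the phosphatidylserine route had the smallest standard errors in dupKIHet against wild-type. Ptdss1 and Ptdss2 exchange the head group of phosphatidylcholine and of phosphatidylethanolamine for serine, and Pisd decarboxylates phosphatidylserine in mitochondria. In the second set Ptdss1 means were 26.8 to 28.2 FPKM, Pisd means at most 29.6 FPKM and Ptdss2 means 15.1 to 16.1 FPKM. In dupKIHet against wild-type their 95% intervals lay within -0.15 and 0.07.

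Ptdss2 gave small differences with no overlap in both of the second-set comparisons that leave out wild-type and dupKIHet. It was at 16.1, 16.0, 16.3 and 16.2 FPKM in KIHet and at 15.6, 15.2, 14.4 and 15.3 FPKM in KIHom, and the KIHom libraries were all lower. It was also lower in all YACQ84 libraries, at 14.8 to 15.2 FPKM, than in all YACQ15 libraries, at 15.6 to 16.6 FPKM. Neither difference passed the test (log2 differences -0.09 and -0.08, limma adjusted p = 1.0 for both). Ranges apart and lower were found for 0.655% and 1.43% of all genes in these comparisons.

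For Pisd the values carry a doubt of identity. Pseudogenes close to it in sequence, Pisd-ps1 and Pisd-ps2, have lines of their own in the table, and Pisd-ps1 ran from 29.9 to 114 FPKM in the first set but was listed at 0 in each of the 28 second-set libraries. How reads shared between Pisd and these copies were split is not given in the sources used here.

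Pemt, which methylates phosphatidylethanolamine to phosphatidylcholine mainly in liver, was low throughout. In the second set wild-type libraries 1 and 2 were at 2.37 and 2.32 FPKM and the other 4 at 4.45 to 5.02 FPKM, and the 4 KIHet libraries ran from 1.61 to 4.64 FPKM. Its 95% intervals against wild-type were the widest of the 8 genes, and in KIHet reached from -0.66 to 0.16. Smaller differences in Pemt were not detectable with this spread.

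Further genes of the pathway were taken from 12 lists on ethanolamine phosphate breakdown, choline and ethanolamine transport, ether lipids, N-acylethanolamines, remodelling, flippases, glycosylphosphatidylinositol anchors and diacylglycerol supply. Of these genes beyond the 9, 65 could be tested in the first set and 64 in the females of the second. In dupKIHom 2 fell and none rose, and in dupKIHet 2 fell and none rose, against 1.64% and 2.53% of all genes called. Ppap2b, which encodes a phosphatase that turns phosphatidic acid into diacylglycerol, fell in both. It was at 60.2, 61.0 and 62.6 FPKM in wild-type and at 41.2, 40.6 and 47.7 FPKM in dupKIHom, with no overlap (log2 difference -0.50 ± 0.07 SE, limma adjusted p = 0.0043). In the second set it was at 61.2 to 66.8 FPKM in wild-type and at 42.2 to 46.7 FPKM in dupKIHet (-0.52 ± 0.04 SE, limma adjusted p = 1.2e-09). Against KIHet the fall in dupKIHet was -0.45, and in the other genotypes Ppap2b did not pass the test.

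The other fall in dupKIHet was Pla2g7, which encodes the acetylhydrolase of platelet-activating factor and of oxidised phospholipids, from 141 ± 17.2 to 110 ± 7.14 FPKM (SD, n = 6 each, log2 difference -0.34, limma adjusted p = 0.0021). Without the libraries above 1000 FPKM of Ttr its adjusted p was 0.0555. In dupKIHom Pla2g7 was at 144 ± 8.83 FPKM beside 177 ± 7.60 FPKM in wild-type (log2 difference -0.29, limma adjusted p = 0.0859). The other fall in dupKIHom was Slc5a7, the choline transporter of cholinergic neurons, from 18.8 ± 1.36 to 14.2 ± 0.95 FPKM (SD, n = 3 each, -0.38, limma adjusted p = 0.0485). That call was lost when any 1 of the 6 libraries was left out, with limma adjusted p values of 0.0553 to 0.194.

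The list of genes around phosphoethanolamine breakdown held 6 genes, and of the 5 beside Etnppl none was called in any comparison. Phykpl, the closest relative of Etnppl, which acts on phosphohydroxylysine, had log2 differences of 0.08 in dupKIHom and 0.09 in dupKIHet. Phospho1, a phosphatase of phosphoethanolamine and phosphocholine, had -0.31 and -0.03 (limma adjusted p = 0.201 and 0.949). Sgpl1, which releases phosphoethanolamine from sphingosine phosphate, had 0.07 and 0.06.

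In the remaining comparisons with wild-type no further pathway gene was called in Atxn3KO, KIHet, KIHom or YACQ15. In YACQ84 Ppap2c, a second phosphatidic acid phosphatase, rose by 0.41 (limma adjusted p = 0.0324), a call kept in 2 of the 10 fits that leave out 1 library. In dupKIHom against Atxn3KO Ppap2b fell (-0.50, limma adjusted p = 0.0048), and the rises of Ppap2c (0.42) and of the flippase gene Atp9a (0.27) were lost in 6 and 5 of the 6 fits that leave out 1 library. No further pathway gene was called between KIHom and KIHet or between YACQ84 and YACQ15. In dupKIHet against KIHet 6 rose and 3 fell, where 10.7% of all genes were called. Those that held in each of the 10 fits without 1 library were Xkr4, a scramblase family gene (0.62), Pcyt1a, the choline counterpart of Pcyt2 (0.18), Ppap2b (-0.45) and Pla2g7 (-0.32), but the call of Pcyt1a was lost under both other normalizations and with only these genotypes fitted (limma adjusted p = 0.0568 to 0.0974). The calls of Ept1, the second ethanolamine phosphotransferase (-0.21), and of Agps, Mboat1, Lpgat1 and Atp11a were lost in 3 to 9 of those 10 fits.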

How the data were processed

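Total RNA from pons was sequenced, and the authors deposited 1 table of FPKM values per gene and library. Per the submitters' processing notes, CASAVA 1.8.2, FastQC, Trimmomatic, TopHat2, DESeq, Cuffdiff and the mm8 build were used, with no roles given. No counts were used, so depth per library is unknown and no counting interval is given. FPKM sums ran from 430083 to 695249. Of 59 labelled samples 37 had a column, and 22 were not analysed here, 2 of them of unstated genotype. In each set 3 wild-type columns carried names that match 2 samples each, and these were tied to the wild-type group only.

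Repeated symbols (132 lines) were summed and 27 lines with date names left out, which gave 41227 genes. Genes listed at 0 in all libraries of a genotype but clearly present elsewhere were left out (7 and 12, none of the 9 genes). Each set was fitted separately with limma 3.58.1 in R 4.3.3 on log2(FPKM + 1), with a trended variance and genes at 1 FPKM or more in at least 3 libraries (14059 and 14802 genes). Fold changes are on this scale, which understates those of low genes. P-values were Benjamini-Hochberg adjusted over all genes of a set, and genes under 0.05 were called. Code was tested on simulated data. Summaries and figures used Python 3.11.15, pandas 2.3.3, scipy 1.17.1 and matplotlib 3.10.9.

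The 9 genes, the gene lists, the tests and the alternatives were chosen with earlier results of these data known. Named genes were the 9, up to 4 called genes per pathway list and comparison, and the 8 genes nearest to Etnppl. Pathway lists held 72 further genes, of which 70 were in the table. Alternatives were other pseudocounts, filters, normalizations, variance settings, sample choices and a block for library number.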

Additional observations from a re-analysis of the deposited data

Results flagged for a closer look

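Single libraries stood apart from the rest of their genotype, by Dixon's criterion, in 5 of 54 groups of 4 to 6 libraries, where chance gives about 1 in 20. For Etnk1 all 4 such libraries carried the number 1 in the second set. Etnk1 was at 98.2 FPKM in wild-type library 1 and at 76.5 to 80.9 FPKM in the other wild-type libraries. It was at 98.8 FPKM in dupKIHet library 1 and at 75.4 to 83.9 FPKM in the others. In KIHom library 1 it was at 94.0 FPKM, beside 76.5 to 78.9 FPKM, and in YACQ15 library 1 at 94.3 FPKM, beside 81.2 to 81.9 FPKM. Cept1 was at 53.4 FPKM in KIHet library 1 and at 39.6 to 41.6 FPKM in the other 3 KIHet libraries.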

How the results depend on the processing

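Etnppl was called in none of the comparisons without a duplicated knock-in under any alternative run. In the duplicated knock-ins, as a description, its log2 difference from wild-type ran from -1.50 to -1.04 in dupKIHom and from -1.57 to -1.23 in dupKIHet, the last without libraries above 1000 FPKM of Ttr. Differences near 0 changed sign. Etnppl in KIHet ran from -0.13 to 0.0020 with 1 library left out (the highest without KIHet library 4), in YACQ15 it was 0.063 without the libraries above 1000 FPKM of Ttr, and relative to the median of the astrocyte genes it was 0.016 in Atxn3KO. The cause was not tested. Of the 9 genes, the number called in KIHet and in KIHom against wild-type ran from 0 to 1 with 1 library left out (Etnk2, without wild-type library 2). For dupKIHet only calls of the other 8 genes are given, since Etnppl was chosen for its low values there. None of them was called against KIHet in the main fit. Etnk2 was called there with only these genotypes fitted, where 4.87% of all genes were. Etnk1 and Etnk2 were called with a term for libraries numbered 1 (25.1% of all genes), which was added after the data had been seen. With library number as a replicate block Etnk1, Etnk2 and Pcyt2 were called there, where 28.6% of all genes were. Under the same block Pcyt2 was called in dupKIHet against wild-type (limma adjusted p = 0.0313), where 6.08% of all genes were. The numbers do not pair the libraries: deviations correlated over 0.1 in all 15 pairs for number 1 only, and in 4, 3 and 7 of 15 for numbers 2, 3 and 4. Counts over all genes moved more than 1.5 times under some alternatives. They ran from 112 to 332 in dupKIHom (230 as reported), from 227 to 900 in dupKIHet (375), from 0 to 358 in KIHet (17), from 6 to 711 in KIHom (89), from 3 to 207 in YACQ84 (78), from 2 to 9 in Atxn3KO (2), from 0 to 2 in YACQ15 (1), from 64 to 342 in dupKIHom against Atxn3KO (175), from 693 to 4240 in dupKIHet against KIHet (1577), from 0 to 1 in KIHom against KIHet (0) and from 3 to 139 in YACQ84 against YACQ15 (39).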
